A study of Mus musculus with 2 samples.

Results

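CC chemokines are small secreted proteins named for a pair of adjacent cysteines near their amino terminus. The 10 genes described here, Ccl2, Ccl3, Ccl4, Ccl6, Ccl7, Ccl8, Ccl9, Ccl12, Ccl22 and Ccl24, were taken by name, not by a threshold on their values. They are 10 of the 20 CC chemokine genes in the table and 10 of its 20330 genes. All 10 passed the filter for comparison, which asked for 1 FPKM or more in either library. FPKM counts fragments per kilobase of transcript, scaled to the mapped fragments of the library, so levels are given per transcript length and can be set side by side between genes.

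The libraries came from adipose tissue macrophages (ATM), the macrophages of fat. Per the study, they were made to ask how ATM that lack HIF-1α produce heat. The WT library was from hMRP8cre-;Hif-1αfl/fl;ApoE-/- mice and the KO library from hMRP8cre+;Hif-1αfl/fl;ApoE-/- mice, with 1 library per genotype. Both genotypes were on the C57BL/6 strain, lacked ApoE and had both Hif1a alleles flanked by loxP sites, and only the KO mice carried Cre. Both were fed a high-fat diet (HFD) for 12 weeks, which per the study's methods began at 4 weeks of age, and cells that stained for CD11b and for the macrophage antigen encoded by Adgre1 were then sorted from visceral fat. The hMRP8 promoter is active in myeloid progenitors, monocytes and neutrophils, so Cre is not restricted to macrophages and can act before ATM form. Whether a library held 1 animal or a pool was not stated. The KO library is the column the table names for the mutant.

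CC chemokines bind G protein-coupled receptors on leukocytes and direct their movement along concentration gradients. In obese fat, chemokines that attract monocytes are known to bring in cells that become macrophages, and macrophages are themselves a major source of these proteins. The genes lie in clusters that arose by duplication. In the RefSeq annotation of GRCm38.p6, Ccl2, Ccl7, Ccl12 and Ccl8 follow each other on chromosome 11 with Ccl11 among them, and Ccl9, Ccl6, Ccl3 and Ccl4 follow each other further along the same chromosome, after Ccl5. Ccl22 lies beside Ccl17 on chromosome 8 and Ccl24 beside Ccl26 on chromosome 5.

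Promoter windows of 250 bases before the gene start (GRCm38.p6) were at hand for 6 of the 10 genes, namely Ccl3, Ccl6, Ccl8, Ccl9, Ccl12 and Ccl22. The windows of Ccl8 and Ccl12 are shown because these genes are neighbours in a cluster and differed in how far their levels separated between the libraries. Those of Ccl3 and Ccl22 are shown because Ccl3 had the highest KO to WT ratio of the 10 genes and Ccl22 the lowest. Each is written 5′ to 3′ on the gene's strand, and capitals mark TATAAA, the core of a TATA box, on that strand. The windows are chr11:82114935-82115184 (plus strand) for Ccl8, chr11:82101595-82101844 (plus strand) for Ccl12, chr11:83649379-83649628 (minus strand) for Ccl3 and chr8:94745434-94745683 (plus strand) for Ccl22.
Ccl8: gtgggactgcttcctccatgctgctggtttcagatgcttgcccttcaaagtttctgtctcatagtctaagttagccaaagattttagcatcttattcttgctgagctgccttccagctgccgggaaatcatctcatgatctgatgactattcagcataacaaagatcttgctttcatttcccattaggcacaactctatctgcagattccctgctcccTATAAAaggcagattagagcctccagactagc
Ccl12: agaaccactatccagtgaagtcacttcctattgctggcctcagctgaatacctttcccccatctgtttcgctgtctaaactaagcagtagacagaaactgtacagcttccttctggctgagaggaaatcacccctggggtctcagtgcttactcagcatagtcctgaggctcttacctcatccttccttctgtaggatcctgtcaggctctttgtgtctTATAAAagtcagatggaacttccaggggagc
Ccl3: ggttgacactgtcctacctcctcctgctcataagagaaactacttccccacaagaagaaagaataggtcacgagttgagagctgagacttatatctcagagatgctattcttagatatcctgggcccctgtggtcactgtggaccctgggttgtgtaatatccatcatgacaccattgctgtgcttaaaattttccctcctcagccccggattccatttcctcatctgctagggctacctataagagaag
Ccl22: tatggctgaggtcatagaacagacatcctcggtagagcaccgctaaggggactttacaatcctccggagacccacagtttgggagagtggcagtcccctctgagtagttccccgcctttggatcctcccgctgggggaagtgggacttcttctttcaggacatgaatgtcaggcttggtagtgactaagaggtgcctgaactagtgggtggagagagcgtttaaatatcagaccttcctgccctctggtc

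The Ccl8 and Ccl12 windows were 55.6% identical after alignment, the highest of the 15 pairs among the 6 windows. The other pairs lay between 43.7% and 50.4%. TATAAA stood 32 to 27 bases before the start of Ccl8 and 31 to 26 bases before the start of Ccl12. Every motif was searched on both strands, and TATAAA was found in 3 of the 6 windows, those of Ccl8, Ccl12 and Ccl9, and in 12.4% of all 32851 promoter windows of the same length. In Ccl9 it stood at 3 places, 2 of which overlap. The letters ACGTG and GCGTG, the forms of the core to which HIF-1 binds, were in none of the 6 windows, against 16.6% and 28.2% of all windows. TGANTCA, the AP-1 core, was found in Ccl9 alone of the 6, 53 to 47 bases before its start, and in 6.75% of all windows. The NF-kB consensus was likewise found in Ccl9 alone, 35 to 26 bases before its start, and in 3.9% of all windows. These are matches of letters, and whether any is a site was not tested. The absence of a match says only that these letters are not in these windows.

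Most of the 10 genes were among the abundant transcripts of both libraries. Their FPKM summed to 8146 in WT and 8505 in KO, which was 1.39% and 1.497% of the FPKM of all genes. The KO to WT ratio of the sums was 1.04. Of the 10 genes, 9 were at 141 FPKM or above in both libraries, and Ccl22 was the exception. The 10 genes made up 98.6% of the FPKM of all 20 CC chemokine genes in WT and 99.0% in KO.

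Behind this near-equal sum, the order of the genes differed. In WT it was Ccl8, Ccl6, Ccl3, Ccl4, Ccl2, Ccl7, Ccl9, Ccl24, Ccl12 and Ccl22. In KO it was Ccl6, Ccl3, Ccl2, Ccl4, Ccl8, Ccl9, Ccl7, Ccl24, Ccl12 and Ccl22. Ccl8 held the first place in WT and the fifth in KO, and the last 3 places were the same. Without replicates, no spread is at hand to say which neighbours in either order differ.

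**Figure D1:**
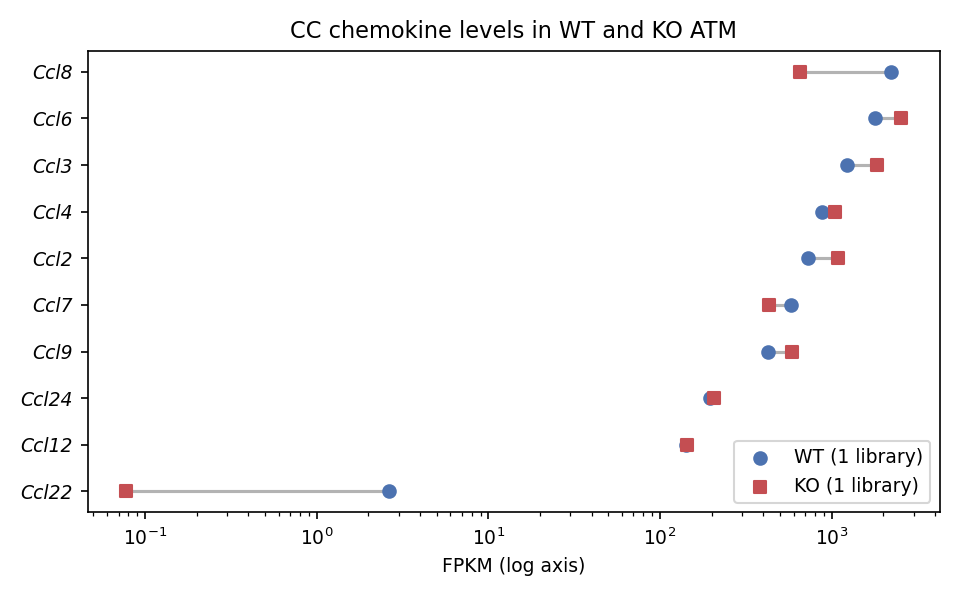
Level of each of the 10 CC chemokine genes in FPKM, on a log axis, with a circle for the WT library and a square for the KO library (1 library each, so no error bars). Genes are ordered by the WT level, and Ccl8 and Ccl22 have the widest gaps, both with the lower value in KO.

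Levels were compared as log2(FPKM + 1), KO minus WT, a scale that understates the difference of low genes. A difference of 3-fold or more on it was counted as higher or lower. Among the 10 genes, none was higher in KO, and 2 were lower, Ccl8 and Ccl22, of which Ccl22 passed the filter through WT alone. Over all 10297 genes compared, 27.3% were past 3-fold in either direction, 13.6% with the higher value in KO and 13.7% with the lower. That share depends on level, and among the 748 genes with a mean of at least 100 FPKM, where 9 of the 10 genes lie, 5 were higher and 11 were lower. In direction alone, 7 of the 10 had the higher value in KO and 3 in WT, counting Ccl12, whose difference of 0.02 turns sign when the libraries are centred on the median gene. Of all genes compared, 5280 had the higher value in KO and 5017 in WT, and of the 748 genes 363 and 385. The median difference of the 10 was 0.17, beside 0.03 over all genes compared. With 1 library per genotype there was no replicate error and no test, and each difference below is between these libraries. In bulk RNA, fewer cells of a type and less RNA per cell cannot be told apart.

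Ccl8 (ENSMUSG00000009185), a monocyte chemoattractant protein that in the mouse signals through CCR8, had 2203 FPKM in WT against 649 in KO. The WT value was 3.39 times the KO value, a difference of -1.76 on the log2 scale, with an estimated 6594 fragments behind the former and 2476 behind the latter. Ccl8 stood in place 32 of all genes in WT and in place 138 in KO. Of the 748 genes with a mean FPKM of at least 100 over both libraries, 11 were lower in KO past 3-fold, or 1.47%, and Ccl8 was the 1 such gene among the 9 CC chemokines at this level. The middle 95% of the differences of these 748 genes lay between -1.36 and 1.03.

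**Figure D2:**
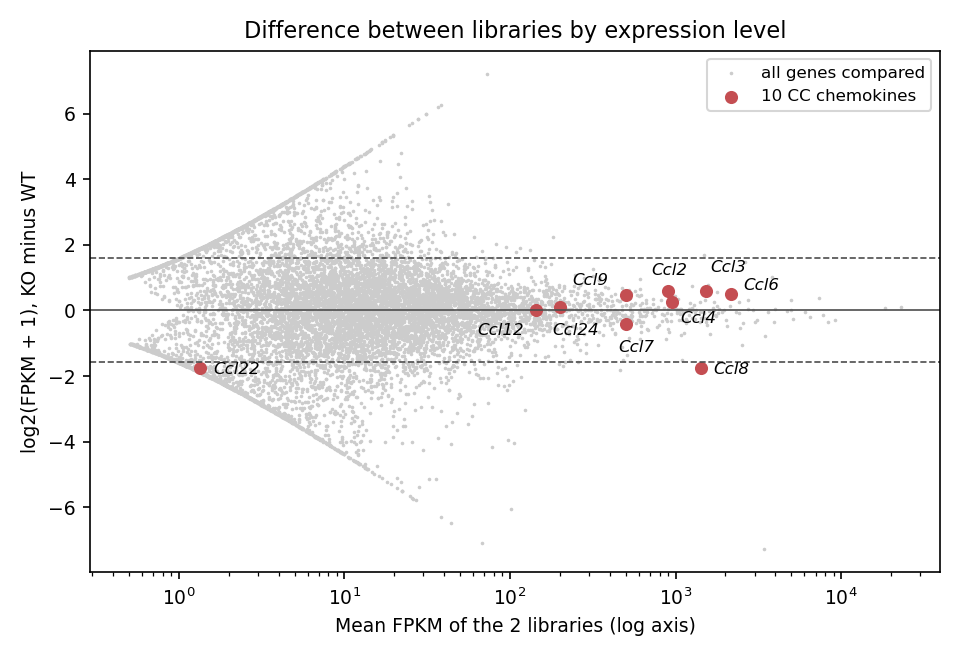
Difference between the libraries, KO minus WT in log2(FPKM + 1), against the mean FPKM of both on a log axis, with grey points for the 10297 genes compared, red points for the 10 CC chemokine genes and dashed lines at 3-fold. Ccl8 lies below the lower line at a level where few genes do, whereas Ccl22 lies among many scattered points at low FPKM.

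Ccl2, Ccl7 and Ccl12, in the same cluster as Ccl8, encode ligands of CCR2, the receptor that draws inflammatory monocytes out of blood. Ccl2 (ENSMUSG00000035385), which encodes the best known of them, had 726 FPKM in WT against 1085 in KO, a KO to WT ratio of 1.49 and a difference of 0.58. Ccl7 (ENSMUSG00000035373) had 578 FPKM in WT against 429 in KO, so that the WT value was 1.35 times the KO value. Ccl12 (ENSMUSG00000035352) had 141 FPKM in WT against 144 in KO, a ratio of 1.02. Of these 3 genes, then, 1 had its higher value in KO by 1.49 times, 1 had it in WT and 1 was nearly level, and none came near 3-fold.

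The balance within the cluster therefore differed between the libraries. For each unit of Ccl12, the level of Ccl8 was 15.6 in WT and 4.51 in KO. Ccl8 was 3.03 times Ccl2 in WT and 0.598 times Ccl2 in KO, a reversed order. Ccl2 was 1.26 times Ccl7 in WT and 2.53 times Ccl7 in KO. Such ratios are taken within a library and do not depend on how the libraries were scaled. Ccl2, Ccl7, Ccl12 and Ccl8, without the scarce Ccl11 of the same cluster, summed to 3649 FPKM in WT and 2307 in KO, a ratio of 0.632, but without Ccl8 the sums were 1446 and 1658, a ratio of 1.15. Fibroblasts, which a sort on CD11b and the Adgre1 product would leave out, are also able to make Ccl2 and Ccl7. Of 7 fibroblast markers 6 passed the filter and had the higher value in KO, but 2 of these, Col1a2 and Pdgfra, passed it through KO alone and were the 2 past 3-fold. The list summed to 49.2 FPKM in WT and 95.3 in KO. Of 7 monocyte markers, Plac8 was higher in KO past 3-fold, and Ly6c2 and Chil3, listed at 0 there, were lower and passed the filter through WT alone. The 7 summed to 565 FPKM in WT and 614 in KO, most of it F13a1. By direction 3 of them had the higher value in KO and 4 in WT. Among the latter was Ccr2, with 29.4 FPKM in WT against 9.78 in KO. The part of these cells in the values of the cluster was not tested.

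The 4 genes of the second cluster all had their higher value in KO. Ccl6 (ENSMUSG00000018927), a ligand of CCR1 that rodents have and humans lack, had 1780.0 FPKM in WT against 2532 in KO, a difference of 0.51. It was the most abundant of the 10 genes in KO, where it stood in place 25 of all genes, against place 42 in WT. Ccl9 (ENSMUSG00000019122), its neighbour and another CCR1 ligand of rodents, had 425 FPKM in WT against 585 in KO, a difference of 0.46. The ratio of Ccl6 to Ccl9 was 4.19 in WT and 4.33 in KO, so the balance of this pair was similar.

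Ccl3 and Ccl4 encode the macrophage inflammatory proteins 1α and 1β, which activated macrophages release together, and the former binds CCR1. Ccl3 (ENSMUSG00000000982) had 1221 FPKM in WT against 1833 in KO, a difference of 0.59. Ccl4 (ENSMUSG00000018930) had 873 FPKM in WT against 1041 in KO, a ratio of 1.19 and a difference of 0.25. The ratio of Ccl3 to Ccl4 was 1.40 in WT and 1.76 in KO. Together the 4 genes summed to 4300 FPKM in WT and 5991 in KO, a ratio of 1.39, with a median difference of 0.48. Each of the 4 lay inside the middle 95% of the 748 genes with a mean of at least 100 FPKM, and Ccl4 also inside their middle 50%, which ran from -0.30 to 0.28. Of those 748 genes, 77 had a KO to WT ratio above 1.5, and Ccl3 was the 1 CC chemokine among them, just past that value. Neutrophils, which carry CD11b but little of the Adgre1 product and so would largely be left out by the sort, are also able to make Ccl3, Ccl4 and Ccl6. Of 10 neutrophil markers 7 passed the filter and had the higher value in KO, but Ngp, Lcn2 and Retnlg passed it through KO alone. Past 3-fold were S100a9, with 63.4 FPKM in WT against 301 in KO, and Ngp and Lcn2. The list summed to 159 FPKM in WT and 531 in KO with Camp, Ltf and Mmp8 at 0 in both. Their part in the values of this cluster was not tested.

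**Figure D3:**
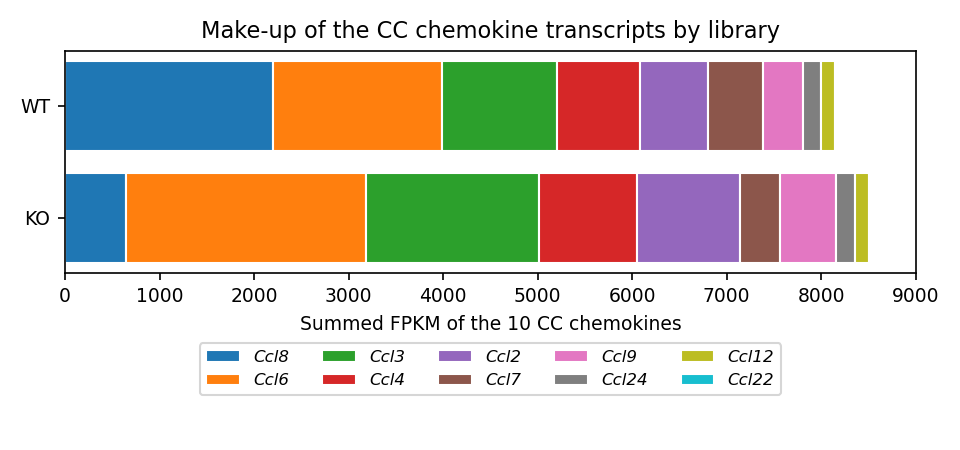
Summed FPKM of the 10 CC chemokine genes in each library, on an axis from 0, with 1 stacked bar for WT and 1 for KO and a colour for each gene. The bars end at 8146 and 8505 FPKM, and the Ccl8 segment is 27.0% of the WT bar and 7.63% of the KO bar, while the Ccl6 and Ccl3 segments are wider in KO.

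As shares of the 10 genes' FPKM, Ccl8 gave 27.0% in WT and 7.63% in KO. Ccl6 gave 21.9% and 29.8%, and Ccl3 gave 15.0% and 21.5%. With Ccl8 set aside, a step chosen after its values were seen, the other 9 genes summed to 5943 FPKM in WT and 7856 in KO, a ratio of 1.32.

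Ccl24 and Ccl22 are known from alternatively activated macrophages, in which IL-4 and IL-13 induce them. Ccl24 (ENSMUSG00000004814), also called eotaxin-2, binds CCR3 and attracts eosinophils. It had 195 FPKM in WT against 207 in KO, a ratio of 1.07 and a difference of 0.09. With Ccl12 it was 1 of the 2 genes nearest to an equal level in both libraries.

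Ccl22 (ENSMUSG00000031779), a ligand of CCR4 that attracts regulatory and helper T cells and is a common product of dendritic cells, was the scarcest of the 10 genes. It had 2.62 FPKM in WT against 0.0777 in KO. The WT value was 33.8 times the KO value, but the fragments behind it were estimated at 34 in WT and at 1 in KO. The 95% counting interval of the ratio ran from 7.27 to 1761 and covers counting error only. On the log2(FPKM + 1) scale the difference was -1.75. Low genes often differed this far between these libraries, as the fan of grey points in the plot of differences by expression level shows.

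Ccl17, the neighbour of Ccl22 and the other ligand of CCR4, differed in the opposite direction. It was listed at 0 in WT but reached 62.5 FPKM in KO, an estimated 240.0 fragments. A value of 0 in this table can be a failed estimate, and no fold is given against it. In WT, 8 of the 1417 genes that reached 50 FPKM in KO were listed at 0, or 0.565%. The dendritic cell markers, which belong to cells that make both ligands, summed to 165 FPKM in WT and 169 in KO. Most of this sum was Cd209a, with 122 FPKM in WT against 131 in KO. Of the 8 markers 4 passed the filter, 2 with the higher value in KO and 2 with the lower, but Zbtb46 passed it through KO alone and Xcr1 through WT alone. Zbtb46 was listed at 0 in WT and reached 9.45 FPKM in KO, the 1 marker past 3-fold. Xcr1 had 1.65 FPKM in WT against 0.0588 in KO, and Batf3 had 40.5 against 28.7. Clec9a and Itgae were listed at 0 in both libraries. Their part in the Ccl22 and Ccl17 values was not tested.

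Of the other 10 CC chemokine genes in the table, 5 passed the filter, and 1 was higher and 4 were lower in KO past 3-fold, beside 13.6% and 13.7% of all genes compared. Of these 5, only Ccl5 was above 0 in both libraries. The others passed the filter through the library in which they were high, so their counts are not a result about the family. The one higher was Ccl17. Ccl5, which attracts T cells and monocytes and lies between the 2 clusters on chromosome 11, had 106 FPKM in WT against 24.7 in KO, a difference of -2.06. T and NK cells, which the sort would leave out, are also able to make Ccl5, and of 7 markers of these cells 6 were listed at 0 in both libraries, while Cd4 had 5.35 FPKM in WT against 2.07 in KO. Their part in the Ccl5 value was not tested. Ccl11, or eotaxin-1, was at 5.20 FPKM in WT and listed at 0 in KO, while Ccl24, which shares its receptor CCR3, was near level. Ccl25 (4.93 FPKM in WT) and Ccl27a (2.31 FPKM in WT), known from gut and skin epithelium, were also listed at 0 in KO. Ccl1, Ccl19, Ccl20, Ccl26 and Ccl28 were listed at 0 in both libraries. These genes were far scarcer than most of the 10, at 119 FPKM in sum in WT and 87.3 in KO.

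The receptor genes of these ligands were compared next. Ccr1 binds the products of Ccl3, Ccl6, Ccl7 and Ccl9, and also that of Ccl5. It had 13.4 FPKM in WT against 44.1 in KO, a difference of 1.65. Ccr2, which binds those of Ccl2, Ccl7 and Ccl12, had 29.4 FPKM in WT against 9.78 in KO, a 3.01-fold gap in FPKM that fell just short of 3-fold on the log2(FPKM + 1) scale. Ccr1 and its ligand genes Ccl3, Ccl6 and Ccl9 had their higher values in KO, and Ccr2 and its ligand gene Ccl7 in WT. Ccl5 and Ccl7, however, differed in the opposite direction to Ccr1, as did Ccl2 to Ccr2.

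Ccr8, whose product binds mouse CCL8, was listed at 0 in WT but reached 6.29 FPKM in KO. Of the 6700 genes at 5 FPKM or more in KO, 364 were listed at 0 in WT, or 5.43%, and no direction is drawn for Ccr8. Ccr3, the receptor for CCL24, was listed at 0 in WT but reached 7.45 FPKM in KO, and no direction is drawn for it either. Ccr3 is also a marker of eosinophils. Of 7 markers of these cells 2 passed the filter, Ccr3, through its KO value alone, and Alox15. Both were counted as higher in KO past 3-fold, Ccr3 against a listed 0. The list summed to 6.50 FPKM in WT and 33.1 in KO, with Siglecf, Epx, Prg2, Ear1 and Il5ra at 0 in both. The part of eosinophils in the Ccr3 value was not tested. Ccr4, the receptor for CCL22 and CCL17, had 0.725 FPKM in WT against 1.93 in KO. Ccr7 was at 0.529 FPKM in WT and listed at 0 in KO, and Ccr6, Ccr9, Ccr10 and Ccr1l1 were listed at 0 in both. Ccrl2, an atypical receptor of macrophages, had 189 FPKM in WT against 125 in KO, whereas Ackr1, Ackr2 and Ackr4, which take up chemokines without signalling, were listed at 0 in both.

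**Figure D4:**
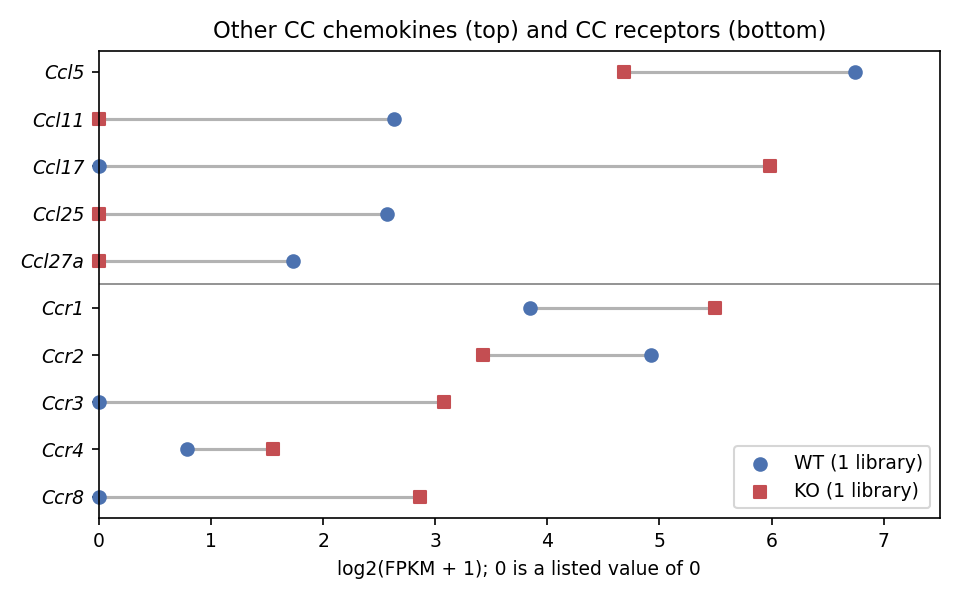
Levels of the other CC chemokine genes and of the reported CC chemokine receptor genes past the filter, as log2(FPKM + 1), with circles for the WT library and squares for the KO library and 0 standing for a listed value of 0. Ccl5 and Ccr2 have their higher value in WT, and Ccr1 has it in KO. Ccl17, Ccr3 and Ccr8 are listed at 0 in WT, which can be a failed estimate, and no direction is drawn for Ccr3 or Ccr8.

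Many CC chemokine genes are induced through NF-kB and AP-1. The 12 factors and feedback inhibitors examined were all within 3-fold, 11 with the higher value in KO, and their median difference was 0.17. Over the 10297 genes compared, 27.3% were past 3-fold, 5280 genes had the higher value in KO, and the median difference was 0.03. For Rela, Junb and Atf3 the difference was 0.02 or less, and centring on the median gene turns its sign. Rela had 88.1 FPKM in WT against 88.4 in KO, Nfkb1 had 43.0 and 48.8, and Junb had 1073 and 1076. Jun had the largest difference, 0.83, from 120 FPKM in WT to 213 in KO. Fos had 499 FPKM in WT against 569 in KO, so both libraries held high levels of immediate-early genes. In the IL-4 and IL-13 pathway, which acts on Ccl24, Ccl22 and Ccl17, 9 of 9 genes were within 3-fold, 5 with the higher value in KO and 4 in WT. Stat6 had 57.2 FPKM in WT against 60.5 in KO, and Irf4 had 13.4 and 15.6. The largest differences ran in opposite directions, with Il13ra1 at 4.89 FPKM in WT against 9.08 in KO and Klf4 at 276 against 179.

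Of 5 enzymes known to trim CC chemokines at their ends, 4 were within 3-fold. The other was Mmp2, which cleaves CCL7, at 2.64 FPKM in WT and listed at 0 in KO, so that it passed the filter through WT alone. Mmp12 had 54.3 FPKM in WT against 20.7 in KO, and Mmp9 was at 38.3 and 48.9. Dpp4, which cuts CCL22 and other chemokines at the amino terminus, was at 1.27 FPKM in WT and listed at 0 in KO, too low to reach 3-fold on this scale.

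The depth was estimated at 5858000 fragments for WT and 7466000 for KO, from the smallest recurring FPKM step. Hif1a had 30.4 FPKM in WT against 20.97 in KO, and Apoe had 94.3 and 117. The table gives whole genes, so these values do not check the deletions. Of 11 macrophage markers in the table, 11 were within 3-fold, 5 with the higher value in KO and 6 in WT. They summed to 15596 FPKM in WT and 15018 in KO, most of it Lyz2, C1qa, C1qb and C1qc. The scarcer Mertk had 38.0 FPKM in WT against 88.1 in KO, and Fcgr1 had 49.3 against 21.9.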

How the data were processed

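RNA sequencing libraries of sorted ATM, 1 for each genotype, were analysed from the table of FPKM values the authors deposited. Per the submitters' processing notes, CASAVA 1.8.2, TopHat2 2.0.9, Cufflinks 2.2.1 and the mm9 build were named. The annotation, filters and strand setting are not given in the sources used here. Of 20749 rows, 401 full repeats were dropped and 18 were summed into their identifier, which left 20330 genes, 98.5% with a symbol in GENCODE M21. With Python 3.11.15 and pandas 2.3.3, genes that reached 1 FPKM in either library were compared as log2(FPKM + 1) with a 3-fold threshold. The procedure was tested on simulated data, but how reliable its calls are in these libraries was not tested. FPKM is not a count, so no count model was used, and with no replicates no p-value was computed. Fragments per gene were estimated from the smallest recurring product of FPKM and transcript length, and cover counting error only. In GENCODE M21 no 50-base stretch of 9 of the 10 genes occurred in another gene's transcripts, against 2% of those of Ccl9, and no exon of another gene overlapped theirs. Promoter windows are from GRCm38.p6, not mm9, and gave sequence and gene order only. All 10 genes were named, and other genes only as members of the lists. 1 receptor gene of the lists is not reported here. The members and lists were chosen with earlier results of these data known. The alternatives were other pseudocounts, filters, scalings, thresholds and treatments of repeated rows.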

Additional observations from a re-analysis of the deposited data

How the results depend on the processing

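The number of the 10 CC chemokine genes past 3-fold was 2, and it was 1 among genes that reached 1 FPKM in each library and 1 among genes with a mean of 5 FPKM or more, since both filters leave out Ccl22. Over all 15 CC chemokine genes past the filter it was 7, 1 higher and 6 lower in KO, beside 27.3% of all genes compared, and 4 of the 5 added calls are genes listed at 0 in 1 library that passed the filter through the other. The median difference of 0.17 lay between 0.09 and 0.25 when each gene was left out in turn, and was 0.02 over those 15 genes. The KO to WT ratio of the sums was 1.04, and 1.32 without Ccl8, an alternative chosen after seeing the data. Ccl8 lay between -1.79 and -1.72 under every alternative run. Ccl22 went to -3.94 and -4.91 with pseudocounts of 0.1 and 0.01. The scalings moved all values by at most 0.04, within which the sign of Ccl12 is not fixed. Over the 10 genes, 86 of 88 recomputed differences stayed within 1.5-fold of the reported one, and 0 called differences reversed. No paired analysis was possible because WT and KO have 1 library each. With no replicates, neither animal nor library variation could be measured, and at the estimated depth Ccl22 was near the limit of 1 fragment in KO.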
